A study of Mus musculus with 8 samples.

Results

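The 38 mouse Hox genes examined here lie in 4 clusters and are ordered within each cluster by paralog position. They were listed by name and matched through GENCODE vM21 to rows of deposited tables that hold 54838 gene rows, and all 38 were found. The list holds 10 genes of HoxA (chromosome 6, 52162417 to 52260880), 10 of HoxB (chromosome 11, 96194316 to 96368256), 9 of HoxC (chromosome 15, 102921103 to 103036852) and 9 of HoxD (chromosome 2, 74668310 to 74765142), all on GRCm38, the build also called mm10. Positions 1 to 4 are called anterior here (11 genes), positions 5 to 8 central (11 genes) and positions 9 to 13 posterior (16 genes). The family was selected on its measured fold changes between n-Sen and proliferating cells. The members' values in that comparison, and in those that reuse its libraries, are therefore a description and not a test.

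Hox genes encode homeodomain transcription factors. During development they are switched on in the order in which they lie along each cluster, so that genes at the low-numbered end mark the hindbrain and neck and genes at the high-numbered end mark the tail end of the trunk and the far end of the limbs. The code persists in cultured fibroblasts, which keep a Hox profile of the body site they came from. Polycomb complexes hold the silent part of a cluster under the histone mark H3K27me3, Trithorax complexes counteract them, and Hox proteins bind DNA together with cofactors of the PBX, MEIS and PKNOX families.

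RNA sequencing was done on mouse embryonic fibroblasts, a mixed primary culture grown out of embryo tissue, in 4 groups of 2 libraries each. All were grown in DMEM with serum at low oxygen. Proliferating (dividing) cells were compared with n-Sen cells, which were arrested in G2 with the CDK1 inhibitor RO3306, treated with nutlin3a (which stabilises p53 by blocking MDM2) for a further 48 h, and afterwards held for 14 days in medium with BI-2536 at 100 nM to remove cells still dividing (it inhibits the mitotic kinase PLK1). The other two groups were senescent cells prepared the same way and cultured for 24 h in HEPES-buffered medium at control pH (control medium) or alkaline pH (alkaline medium), a pair meant to show what an alkaline environment does to senescent cells. Mouse strain, embryonic age, the part of the embryo used and whether n-Sen cells also spent time in buffered medium are not given in the sources used here. The labels do not say that libraries of a group came from separate cultures, so every p-value measures only the spread between these libraries, which may be technical.

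Total counts ran from 40608517 to 54183060 per library. Of these, 15137 to 27767 fell on the 38 Hox genes. Summed markers of fibroblasts (14 genes) lay at 12184 to 12433 CPM (counts per 1000000, TMM-scaled) in proliferating cells and at 16617 to 19024 CPM in the 6 senescent libraries. In n-Sen 9 of the 14 were called higher, among them the collagens Col1a1, Col1a2 and Col3a1 that carry much of the sum, and 5 were called lower, Pdgfra (log2 -3.17), Twist2 (-1.20), Prrx1 (-0.80), Twist1 (-0.44) and Thy1 (-0.22). Of the markers listed for other cell types Epcam (epithelium), Sox10 (Schwann cells), Myod1 (muscle) and Adipoq (fat) reached at most 0.119 CPM and Pecam1 (endothelium) at most 0.421 CPM in any library. Other genes of the same lists were well above this in proliferating cells. Krt19 was 59.7 and 52.2 CPM there, Krt7 15.1 and 14.0 CPM, Kdr 24.4 and 20.8 CPM and Pparg 15.7 and 14.9 CPM. The low genes therefore do not show that these cell types were absent. All 13 macrophage markers were higher in n-Sen than in proliferating cells, and their summed level was 50.7 and 56.6 CPM in proliferating cells and between 1016 and 1202 CPM in the 6 senescent libraries. The labels describe the cells as fibroblasts, and in bulk RNA more cells of a type and more RNA per cell cannot be told apart. Summed markers of epithelium (94.0 to 98.5 CPM in proliferating and 10.0 to 12.7 CPM in senescent libraries, 6 of 7 tested genes lower in n-Sen and 1 higher), of cartilage and bone (927 to 946 CPM and 503 to 745 CPM, 4 of 7 lower and 1 higher) and of endothelium (26.9 to 33.1 CPM and 7.36 to 9.39 CPM, 2 of 4 lower and 1 higher) went the other way. The cartilage and bone sum joins opposite changes. Its main gene in proliferating cells, Col2a1, went from 819 and 841 CPM there to 60.6 and 65.6 CPM in n-Sen. Col10a1 went from 6.503 and 7.504 CPM to 528 and 537 CPM and made up most of the n-Sen sum. Muscle markers summed to 59.3 to 65.4 CPM in proliferating and 67.0 to 114 CPM in senescent libraries, a sum that is nearly all Des (on average 58.6 CPM in dividing and 93.9 CPM in n-Sen cultures), while the other 3 of 4 tested were lower in n-Sen. Neural and glial markers summed to 436 to 458 CPM and 352 to 523 CPM (2 of 6 higher and 2 lower), and adipocyte markers to 19.2 to 19.3 CPM and 8.66 to 11.9 CPM (1 of 2 lower). Beside these counts, 34.0% of all genes tested were called higher in n-Sen and 33.1% lower. Whether any of these marker lists has a part in the Hox values was not tested.

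The stretches just upstream of 5 members are shown because these genes sit at the ends of the pattern described next. Hoxd13, Hoxd12, Hoxd11 and Hoxa13 were near 0 in proliferating cells and present in all senescent libraries, whereas Hoxa2 went the other way. Each is the 250 bases before the RefSeq start of the gene on GRCm38.p6, written 5′ to 3′ on the gene's own strand; capitals mark CCAAT and TATAAA, read on either strand. They lie at chr2:74667975-74668224 (plus strand), chr2:74674763-74675012 (plus), chr2:74679308-74679557 (plus), chr6:52260881-52261130 (minus) and chr6:52164832-52165081 (minus).
Hoxd13: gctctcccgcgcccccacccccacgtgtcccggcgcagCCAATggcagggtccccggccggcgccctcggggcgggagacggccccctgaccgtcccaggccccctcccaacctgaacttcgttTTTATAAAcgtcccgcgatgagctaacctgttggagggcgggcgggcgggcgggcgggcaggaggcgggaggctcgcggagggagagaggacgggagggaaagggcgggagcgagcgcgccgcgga
Hoxd12: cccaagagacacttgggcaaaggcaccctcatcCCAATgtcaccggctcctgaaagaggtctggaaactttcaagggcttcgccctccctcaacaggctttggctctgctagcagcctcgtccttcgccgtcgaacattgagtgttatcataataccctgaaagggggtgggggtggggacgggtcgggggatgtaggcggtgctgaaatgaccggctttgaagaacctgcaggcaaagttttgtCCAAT
Hoxd11: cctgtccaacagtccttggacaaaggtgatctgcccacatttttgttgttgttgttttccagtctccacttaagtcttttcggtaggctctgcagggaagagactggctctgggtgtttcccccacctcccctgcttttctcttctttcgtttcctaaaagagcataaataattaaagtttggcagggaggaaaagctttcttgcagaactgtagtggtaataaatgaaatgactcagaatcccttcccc
Hoxa13: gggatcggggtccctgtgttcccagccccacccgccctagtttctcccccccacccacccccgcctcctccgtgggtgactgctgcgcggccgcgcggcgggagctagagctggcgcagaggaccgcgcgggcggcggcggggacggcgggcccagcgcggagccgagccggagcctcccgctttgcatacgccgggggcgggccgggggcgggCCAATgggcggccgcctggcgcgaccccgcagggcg
Hoxa2: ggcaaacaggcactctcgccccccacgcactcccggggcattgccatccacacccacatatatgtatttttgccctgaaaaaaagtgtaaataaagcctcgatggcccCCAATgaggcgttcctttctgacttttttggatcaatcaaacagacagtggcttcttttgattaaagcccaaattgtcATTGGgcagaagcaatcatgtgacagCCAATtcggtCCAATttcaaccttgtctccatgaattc

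The 4 posterior stretches did not share one composition. The Hoxa13 stretch was 80.0% G or C with 35 CpG dinucleotides and the Hoxd13 stretch 74.4% with 31, whereas Hoxd12 had 55.6% with 10 and Hoxd11, inside the same cluster as Hoxd13, 44.8% with 2. The Hoxa2 stretch had 46.4% and 6 CpG. RefSeq promoters were at hand for 22 of the 38 genes, with a median of 56.8% G or C and 12 CpG, against 52.4% and 6 over 32851 promoters of the same length. Some of these RefSeq starts lie far from the 5′ end of the GENCODE gene, by 15461 bases for Hoxc4, 10049 for Hoxd4, 3719 for Hoxa9 and 3281 for Hoxa7. The stretches of Hoxc4 and Hoxa3 lie wholly in exons, so the 22 are not all sequence before a gene. CCAAT, the letters of the NF-Y binding box, stood in 13 of the 22 (59.1%, against 33.8% of all promoters) and TATAAA in 3 (13.6% against 12.4%). TGATTNAT, a PBX-HOX word, was found in 1 of the 22 Hox stretches (4.55% against 2.82%). TTTATNG, a word read by posterior HOX and CDX proteins, was in 2 (9.09% against 9.81%). GGGCGG, the GC box, was in 9 (40.9% against 32.7%). Both strands were searched, and the pair of TATAAA matches upstream of Hoxd13 overlap each other. A match is a description of letters and no binding was measured.

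In n-Sen against proliferating cells the Hox genes divided by paralog position. Of the 16 posterior genes 15 passed the filter on low counts, 14 were called higher and the remaining one, Hoxc11, was not called. Of the 11 anterior genes 9 passed, 5 were called lower and 4 were not called. The 11 central genes fell in between, with 4 called higher, 1 lower and 6 not called. Calls are those of edgeR's quasi-likelihood test at a Benjamini-Hochberg adjusted p of 0.05 over 19264 genes. Over all these genes 34.0% were called higher and 33.1% lower, so a call by itself was common in this comparison. Nothing is read from the Hox counts beyond their description, since this comparison chose the genes.

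**Figure D1:**
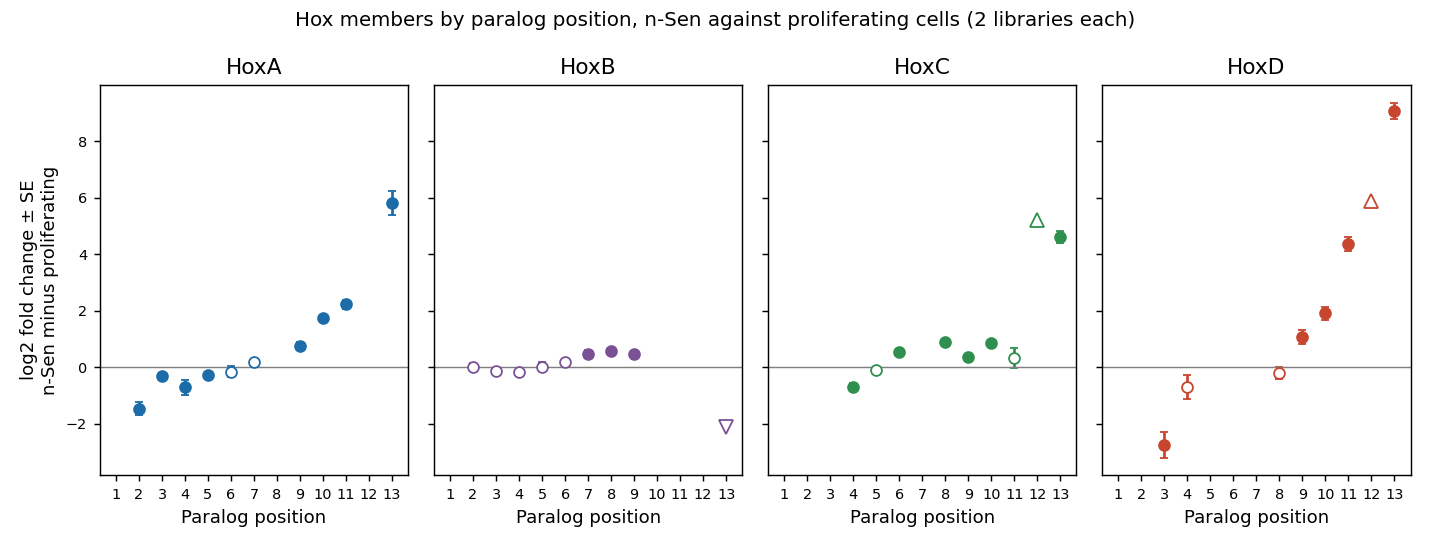
The log2 fold change of each Hox gene, n-Sen minus proliferating (y axis), is drawn against paralog position (x axis) in one panel per cluster, with bars of 1 SE from the edgeR fit. Filled points are genes called at an adjusted p of 0.05, open points are not called, and triangles are bounds for genes with no count in a group (at least 37.4-fold for Hoxc12 and 59.3-fold for Hoxd12, higher, and 4.38-fold for Hoxb13, lower). In HoxA and HoxD the values go from below 0 at positions 2 and 3 to 5.81 and 9.08 at position 13.

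The size of the difference also followed the position when genes were taken by anterior, central and posterior class. The median log2 fold change was -0.69 over the 9 tested anterior genes, 0.17 over the 11 central genes and 1.91 over the 15 tested posterior genes, and it was 0.38 over all 35 tested members, against 0.00 over all genes tested. The posterior median was 1.91 whether the genes with no count in proliferating cells were taken at their fitted value or at their bound. By single positions the median was -0.33 at position 3, -0.11 at position 5, 0.17 at position 6, 0.33 at position 7, 0.57 at position 8, 0.61 at position 9, 1.75 at position 10, 2.23 at position 11 and 5.81 at position 13. Position 4, at -0.70, and position 2, at -0.72, were both below position 3. Position 12 had a fitted median of 9.21, above position 13, so the single positions did not rise steadily. Both its genes had no count in proliferating cells, and that fitted value is no bound. The position 13 median leaves out Hoxb13, which was not tested. Of the called members, 10 were at least 2-fold higher and all 10 were posterior. The 2 that were at least 2-fold lower, Hoxa2 and Hoxd3, were anterior. Over all genes tested, 17.2% were called at least 2-fold higher and 13.1% at least 2-fold lower. The n-Sen libraries were both above both proliferating libraries for 20 of the 35 tested members (41.9% of all genes) and both below for 10 (41.5% of all genes).

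The position 13 genes end each cluster. Hoxd13 (ENSMUSG00000001819), which patterns the digits and the genital tubercle, stood at 0 and 0.0796 CPM in the proliferating libraries and at 24.4 and 25.6 CPM in n-Sen. It was 19.8 and 17.8 CPM in control medium and 16.6 and 14.2 CPM in alkaline medium. The proliferating libraries held 0 and 4 counts of this gene and the n-Sen libraries 1137 and 1382, so no senescent library came near a proliferating one. The fitted log2 fold change was 9.08 ± 0.282 (SE). It rests on the 4 counts of proliferating replicate 2, being 8.25 when replicate 1 was left out and 13.21 when replicate 2 was left out, where the group has no count and the fitted value is no bound.

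Hoxa13 (ENSMUSG00000038203), the partner of Hoxd13 in the hand and foot plate, had 0 and 0.199 CPM in proliferating cells and 6.64 and 5.79 CPM in n-Sen. It had 4.35 and 5.15 CPM in control medium and 3.89 and 4.22 CPM in alkaline medium. The groups of proliferating and senescent libraries did not overlap. The log2 fold change of n-Sen over proliferating cells was 5.81 ± 0.425; the 10 counts behind it came from proliferating replicate 2, and the fitted value was 4.95 without replicate 1 and 11.20 without replicate 2. Hoxc13 (ENSMUSG00000001655), which drives keratin genes of hair and nail, was present in both proliferating libraries at 0.480 and 0.478 CPM. It stood at 10.5 and 12.8 CPM in n-Sen, 11.2 and 11.8 CPM in control medium and 13.6 and 13.1 CPM in alkaline medium, with a log2 fold change of 4.61 ± 0.215 in n-Sen. Its control medium libraries lay within the range of the n-Sen libraries and its alkaline medium libraries above it.

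The fourth gene of position 13 did not share this direction. Hoxb13, known from prostate and tail development, lies 74.0 kb beyond its neighbour Hoxb9. It had 4 and 8 counts in the proliferating libraries, 0 in all n-Sen and control medium libraries, and 0 and 2 in alkaline medium. With a floor of 3 counts over the n-Sen group it was at least 4.38-fold lower in n-Sen. It did not pass the filter on low counts in any comparison, so these counts are given without a test.

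Position 12 had no count at all in proliferating cells. Hoxd12, a gene of the digit-forming region, was 1.97 and 1.91 CPM in n-Sen, 1.54 and 1.23 CPM in control medium and 0.694 and 1.05 CPM in alkaline medium. Set against 3 counts over the proliferating group, it was at least 59.3-fold higher in n-Sen. Hoxc12 was 0.965 and 1.44 CPM in n-Sen, 1.09 and 0.643 CPM in control medium and 0.619 and 0.977 CPM in alkaline medium. It was at least 37.4-fold higher in n-Sen by the same floor. Every senescent library held counts of both genes.

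The position 11 genes of HoxA and HoxD pattern the forearm and lower leg. Hoxd11 stood at 0.432 and 0.299 CPM in dividing cultures, 8.00 and 6.84 CPM in n-Sen, 4.92 and 5.34 CPM in control medium and 4.76 and 4.87 CPM in alkaline medium, a log2 fold change of 4.36 ± 0.253 in n-Sen. Hoxa11 went from 2.71 and 2.24 CPM to 11.9 and 11.2 CPM, with 7.59 and 9.96 CPM in control medium and 8.19 and 9.54 CPM in alkaline medium, and its log2 fold change was 2.23 ± 0.159. For both, all 6 senescent libraries were above both proliferating ones. Hoxa11os, an antisense transcript that covers 35.0% of the exon bases of Hoxa11, changed from 1.17 and 1.21 CPM to 9.66 and 7.82 CPM, a log2 fold change of 2.87. Whether the counting used strand is not given in the sources used here, and reads of the pair cannot be told apart without it. Counts of Hoxa11 and Hoxa11os ended in the same fraction in proliferating replicate 1 (112.83 and 48.83) and control medium replicate 1 (370.33 and 294.33). In n-Sen replicate 1 (554 and 450.67) they did not. The rises of the pair are therefore not taken as independent. Hoxc11, the third gene of this position, had 0.888 and 1.35 CPM in proliferating cells and 1.01 and 1.81 CPM in n-Sen, which overlap.

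Position 10 genes act in the lumbar spine, the upper leg and, for Hoxa10, the uterus. Hoxa10 was 7.68 and 9.01 CPM in proliferating cells and 28.6 and 27.6 CPM in n-Sen, with 21.0 and 20.6 CPM in control medium and 20.4 and 15.8 CPM in alkaline medium, a log2 fold change of 1.75 ± 0.109 in n-Sen. Hoxd10 was 1.91 and 1.13 CPM, then 5.31 and 5.98 CPM in n-Sen, 4.01 and 3.07 CPM in control medium and 4.45 and 3.97 CPM in alkaline medium, with a log2 fold change of 1.91 ± 0.233. Hoxc10 was 10.9 and 10.3 CPM in proliferating cells and 18.5 and 19.7 CPM in n-Sen. All 3 were higher in each senescent library than in either proliferating library.

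At position 9, the thoracic and lumbar boundary, the differences were smaller. Hoxd9 was 1.10 and 1.47 CPM in dividing cultures, 2.69 and 2.76 CPM in n-Sen, 2.15 and 2.87 CPM in control medium and 1.82 and 1.73 CPM in alkaline medium, a log2 fold change of 1.07 ± 0.259 in n-Sen. Hoxa9, a regulator of blood progenitors, was at 0.77 ± 0.129, Hoxb9, a gene of rib patterning, at 0.45 ± 0.080 and Hoxc9 at 0.38 on the same scale. None of these last 3 reached 2-fold.

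**Figure D2:**
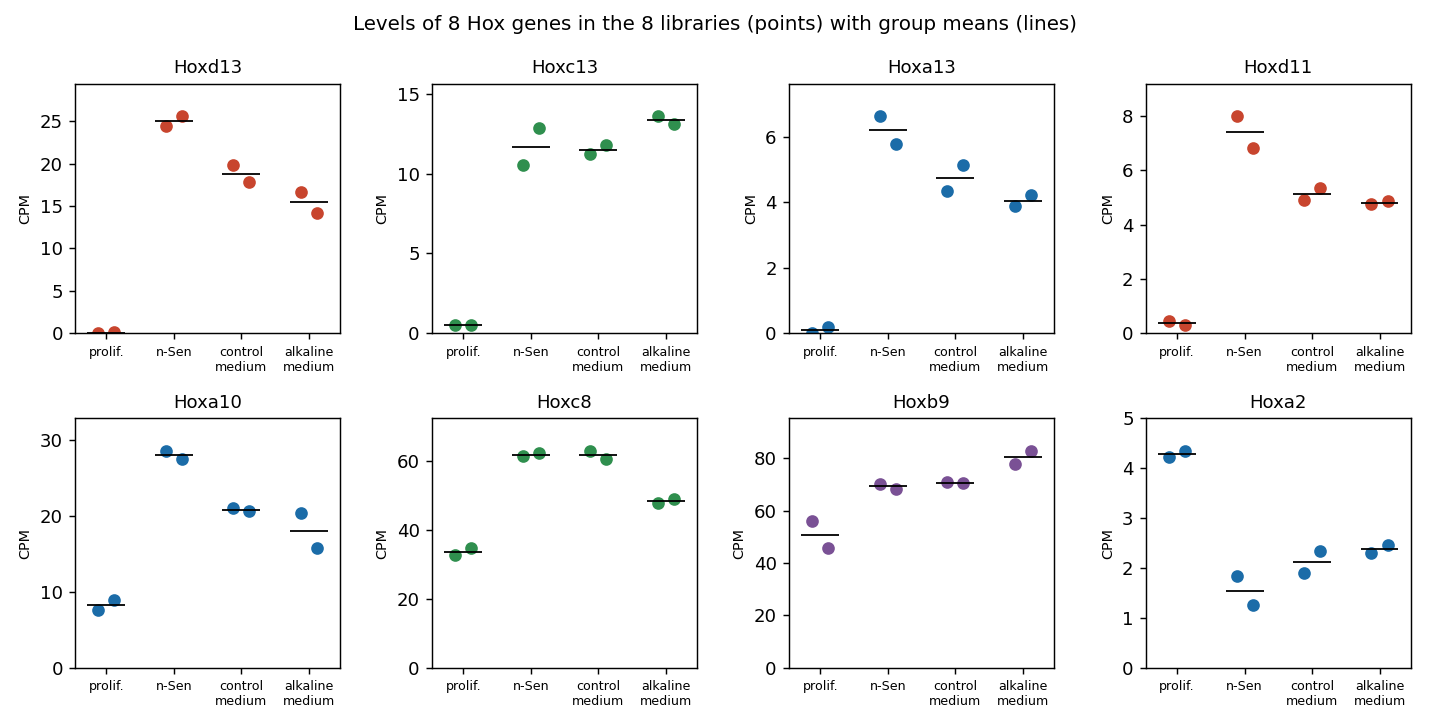
Levels in CPM (y axes, each starting at 0) of 8 Hox genes are drawn for the 2 libraries (points) of each of the 4 groups (x axes), with a line at the group mean. Hoxd13, Hoxc13, Hoxa13, Hoxd11 and Hoxa10 are higher in all 6 senescent libraries than in both proliferating ones, Hoxa2 is lower in all 6, and Hoxc8 and Hoxb9 differ between control and alkaline medium in opposite directions.

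The central genes changed least. Hoxc8, a thoracic gene, was 32.6 and 34.6 CPM in proliferating cells and 61.4 and 62.2 CPM in n-Sen, a log2 fold change of 0.88. The other central genes called higher were Hoxb8 at 0.57, Hoxc6 at 0.53 and Hoxb7 at 0.48. Hoxa5, required for lung and tracheal development, was the central gene called lower, at -0.27. Hoxa6, Hoxa7, Hoxb5, Hoxb6, Hoxc5 and Hoxd8 were not called, with log2 fold changes from -0.21 for Hoxd8 to 0.19 for Hoxa7.

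Anterior genes went down where they were called. Hoxa2, a selector gene of the second pharyngeal arch, was 4.24 and 4.35 CPM in proliferating cells and 1.84 and 1.25 CPM in n-Sen, with 1.91 and 2.34 CPM in control medium and 2.31 and 2.47 CPM in alkaline medium, a log2 fold change of -1.47 ± 0.233 in n-Sen. Hoxd3, which patterns the first neck vertebrae, was 1.77 and 1.24 CPM and then 0.239 and 0.202 CPM in n-Sen, 0.176 and 0.166 CPM in control medium and 0.194 and 0.148 CPM in alkaline medium, a log2 fold change of -2.76 ± 0.447. Both were lower in every senescent library than in either proliferating one. Hoxd3 and Hoxd4 share exon bases with each other and with the gene model Gm28230 on the same strand (62.4% of Hoxd3 and 52.3% of Hoxd4), so the split of reads between them is uncertain. Hoxa4 (-0.72), Hoxc4 (-0.69) and Hoxa3 (-0.33) were the other anterior genes called lower. In DESeq2 the calls of Hoxa3, Hoxa4 and Hoxa5 were lost; that of Hoxa3 was lost without n-Sen replicate 1, and those of Hoxa4 and Hoxa5 without n-Sen replicate 2. Hoxb2, Hoxb3, Hoxb4 and Hoxd4 were not called, with log2 fold changes from -0.70 for Hoxd4 to 0.02 for Hoxb2. Hoxb1 had 1 count in all 8 libraries and Hoxd1 had 0, and neither was tested.

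The 4 clusters did not take equal parts. The summed level of the 5 posterior HoxD genes was 3.44 and 2.99 CPM in proliferating cells and 42.3 and 43.1 CPM in n-Sen. The ratio of the group means was 13.3. In HoxA the 4 posterior genes had a ratio of 3.07, in HoxC the 5 posterior genes 1.997, and in HoxB the 2 posterior genes, which is nearly all Hoxb9, 1.36. The anterior genes had ratios of 0.323 in HoxD, 0.618 in HoxC (Hoxc4 alone), 0.682 in HoxA and 0.926 in HoxB. HoxB was thus the cluster with the smallest ratio at its posterior end and the ratio nearest 1 at its anterior end. Of its 8 tested genes 3 were called higher and 5 were not called. HoxA had 4 higher and 4 lower of 10, HoxC 6 higher and 1 lower of 9, and HoxD 5 higher and 1 lower of 8 tested.

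**Figure D3:**
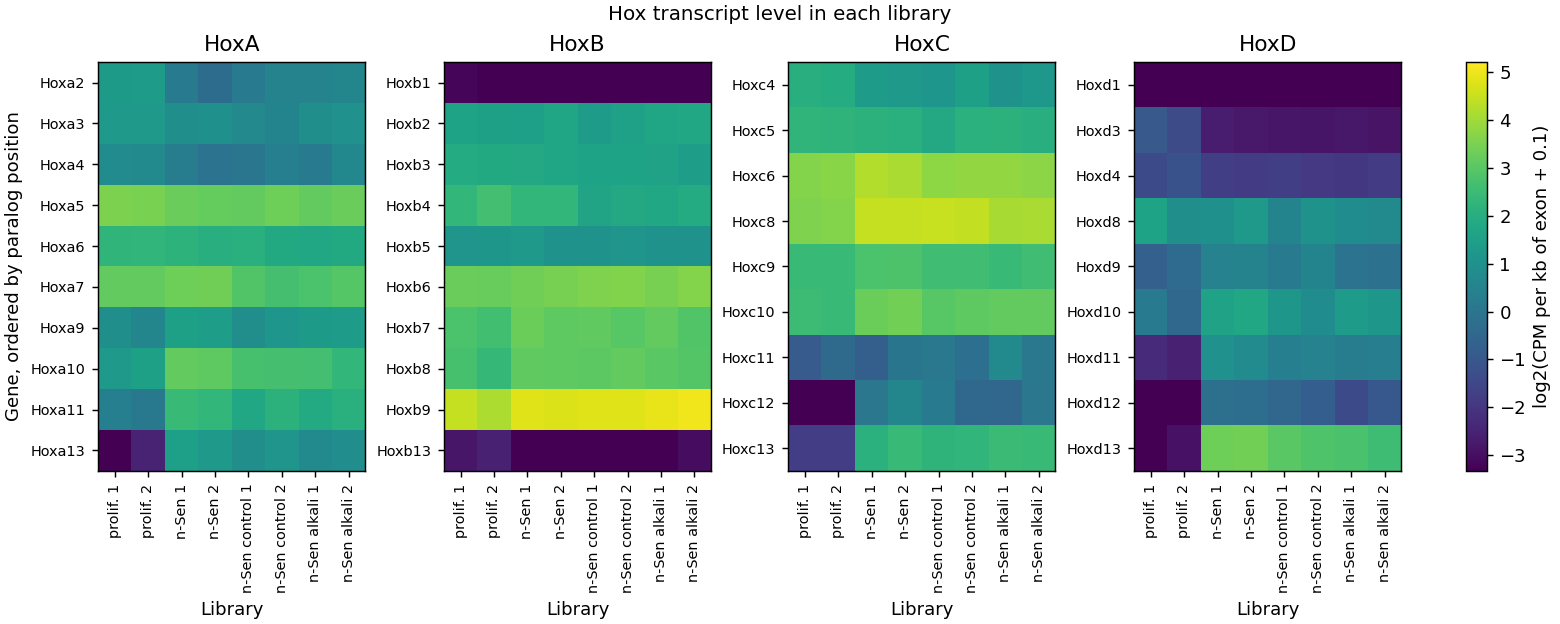
Transcript levels of the 38 Hox genes (rows, ordered by paralog position, one panel per cluster) in the 8 libraries (columns) are coloured as log2 of CPM per kb of exon plus 0.1. Hoxb9, Hoxc6 and Hoxc8 are among the brightest rows in all libraries, and the lowest rows of HoxA, HoxC and HoxD go from dark in the 2 proliferating libraries to bright in the 6 senescent ones.

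To compare genes with each other, levels were divided by exon length. On this scale of CPM per kb, Hoxb9 was the highest Hox gene in all 4 groups, at 19.8 ± 2.84 (SD, n = 2) in proliferating cells, 26.9 ± 0.536 in n-Sen, 27.4 ± 0.150 in control medium and 31.2 ± 1.33 in alkaline medium. In proliferating cells Hoxc6 (12.5 ± 0.441), Hoxc8 (11.9 ± 0.492) and Hoxa5 (11.2 ± 0.0481) came next, with the intervals of 1 SD of Hoxc6 and Hoxc8 overlapping. In n-Sen the order after Hoxb9 was Hoxc8 (21.8 ± 0.206) and Hoxc6 (17.97 ± 0.971), and then a group at similar levels that included Hoxb6 (10.5 ± 0.450), Hoxd13 (10.1 ± 0.346), Hoxc10 (10.0 ± 0.464) and Hoxa7 (9.98 ± 0.257). These 4 lay within their SDs of a neighbour in that order. Hoxd13 was thus at the level of mid-trunk genes in n-Sen, from 0.0160 ± 0.0227 in proliferating cells. Among the position 13 genes in n-Sen, Hoxd13 was above Hoxc13 (4.75 ± 0.659), and Hoxc13 above Hoxa13 (2.52 ± 0.243).

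Shares of summed CPM give the division of Hox reads between the classes, for comparison between libraries. They are not divided by exon length, which runs from 874 bases for Hoxa6 to 6014 for Hoxa3, so longer genes weigh more. Posterior genes took 28.9% and 26.8% of the summed Hox CPM in the proliferating libraries and 42.9% and 43.4% in n-Sen. In the buffered media they took 41.9% and 41.8% (control) and 44.1% and 43.8% (alkaline). The posterior share was thus higher in each of the 6 senescent libraries than in either proliferating library. The anterior share went from 19.8% and 21.0% to 11.21% and 11.04% in n-Sen, and was 10.6% to 12.1% in the other senescent libraries. The summed Hox level itself was 363 and 348 CPM in dividing cultures, 520 and 514 CPM in n-Sen, 452 and 461 CPM in control medium and 452 and 455 CPM in alkaline medium.

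**Figure D4:**
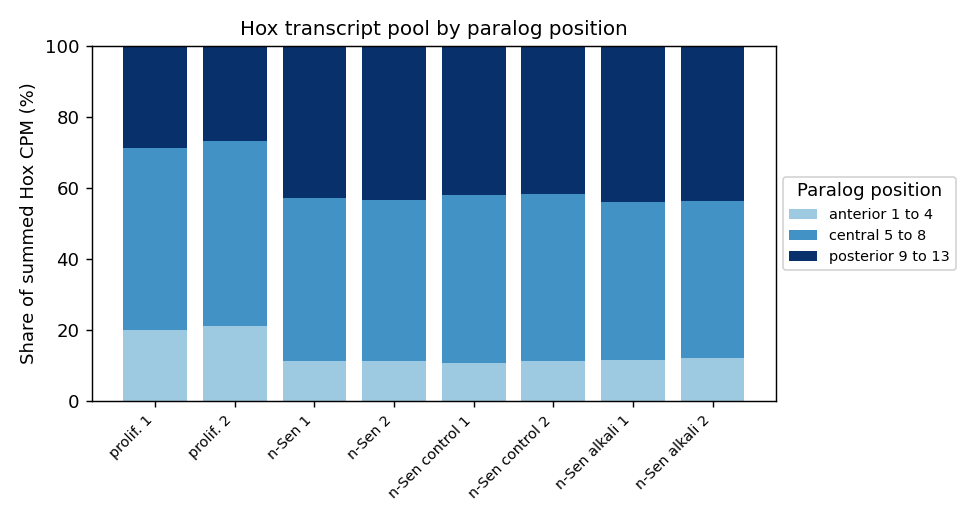
Stacked bars give, for each of the 8 libraries (x axis), the share of summed Hox CPM (y axis, in percent) from anterior, central and posterior genes. CPM is not divided by exon length here. The posterior share is 26.8% to 28.9% in the 2 proliferating libraries and 41.8% to 44.1% in the 6 senescent ones.

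The 4 libraries in buffered medium mostly lay on the same side of proliferating cells as the n-Sen libraries. Of the 16 posterior genes, 13 were above both proliferating libraries in all 6 senescent libraries, 1 (Hoxb13) was below and 2 (Hoxa9 and Hoxc11) overlapped. Of the 11 anterior genes 7 were below and 4 overlapped, and of the 11 central genes 5 were above, 3 below and 3 overlapped. Over the 20215 genes of the fit of all 8 libraries, 33.2% were above and 32.2% below in this sense. The proliferating and n-Sen libraries in these counts also served to choose the family, so the Hox counts are a description beside that share. The buffered-medium libraries came in a table of their own, so their distance from proliferating cells includes any difference between the tables.

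Alkaline medium left the Hox genes close to their level in control medium. Of 34 members tested, Hoxa3 and Hoxb9 rose and Hoxc8 and Hoxd13 fell, and 30 did not pass edgeR's quasi-likelihood test at an adjusted p of 0.05. Each direction holds 5.88% of the tested members, against 9.58% called higher and 10.4% called lower over the 19129 genes tested. At an unadjusted p of 0.05 there were 4 members higher and 3 lower. None of the 4 called members reached 2-fold (0.962% of all genes were called at least 2-fold higher and 1.80% at least 2-fold lower), and the median log2 difference over the 34 was -0.05, against -0.01 over all genes. The summed macrophage markers were 1100 and 1162 CPM in control medium and 1016 and 1019 CPM in alkaline medium, with 7 of 13 lower, and their part in the Hox values was not tested.

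Hoxc8 was 62.9 and 60.6 CPM in control medium and 47.9 and 49.0 CPM in alkaline medium. The log2 difference was -0.36 ± 0.060, with an adjusted p of 0.000101 in edgeR's quasi-likelihood test, and its adjusted p stayed between 9.92e-06 and 0.000388 when any single library was left out. Hoxb9, at 56.0 and 45.7 CPM in proliferating cells and 70.2 and 68.2 CPM in n-Sen, was 70.9 and 70.4 CPM in control medium and 77.9 and 82.8 CPM in alkaline medium, a log2 difference of 0.18 ± 0.056 (adjusted p = 0.0242 in edgeR). Hoxa3, which is needed for the thymus and parathyroid, was 13.68 and 13.60 CPM in proliferating cells and 10.7 and 11.03 CPM in n-Sen. In control medium it was 9.17 and 8.01 CPM and in alkaline medium 10.7 and 11.4 CPM, a difference of 0.36 ± 0.123 (adjusted p = 0.0448 in edgeR). Hoxd13 was 19.8 and 17.8 CPM and then 16.6 and 14.2 CPM, a difference of -0.30 ± 0.103 (adjusted p = 0.0458 in edgeR). In all 4 genes the ranges of the control and alkaline libraries were apart. That was so for 7 tested members in the upward and 10 in the downward direction, against 28.6% and 28.1% of all genes tested.

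The calls of Hoxb9, Hoxa3 and Hoxd13 rested on single libraries. Without control medium replicate 2 or alkaline medium replicate 2, Hoxb9 was no longer called, and its adjusted p in edgeR ranged from 0.0230 to 0.265 over the 4 libraries left out in turn. Hoxa3 was lost without control medium replicate 2 or either alkaline library (0.0287 to 0.284), and Hoxd13 without control medium replicate 1 or alkaline medium replicate 2 (0.00902 to 0.353). Hoxc8 was thus the member whose call did not turn on 1 library. Exon bases of Hoxa3 are shared with antisense transcripts for 25.4% of its length, whereas those of Hoxc8, Hoxb9 and Hoxd13 are not shared.

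The other 6 HoxD genes that were tested in alkaline medium did not pass, and Hoxd1 and Hoxd3 did not pass the filter. Hoxd12, at a log2 difference of -0.67 ± 0.353, Hoxd9, at -0.52 ± 0.248, Hoxd11, at -0.10 ± 0.160, Hoxd4, at -0.09 ± 0.511, and Hoxd8, at -0.06 ± 0.187, were below 0, and Hoxd10, at 0.24 ± 0.189, was above. Hoxc11, at 0.56 ± 0.269, had the highest difference of the 34 and did not pass either. The median log2 difference in alkaline medium was 0.14 over anterior, -0.05 over central and -0.06 over posterior genes.

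Cells in control medium had lower levels of several Hox genes than n-Sen cells. In the fit of all 8 libraries, 8 of 35 tested members fell (22.9%, against 4.96% of 20215 genes called lower and 6.18% called higher) and the other 27 did not pass. No member was called higher by edgeR or by DESeq2, and at an unadjusted p of 0.05 edgeR had 0 members higher and 12 lower. The 8 were Hoxa7, Hoxc6, Hoxb4, Hoxa10, Hoxa9, Hoxd13, Hoxd10 and Hoxd11, of which 5 are posterior. The median log2 difference was -0.39 over the 15 tested posterior genes, -0.12 over the central and -0.13 over the anterior genes. These groups come from separate tables, and the medium and the preparation of the tables cannot be told apart. The n-Sen libraries also served to choose the family. Counts and p-values of Hox genes in this comparison are therefore a description and not a test of the family.

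Hoxa7, a thoracic gene, was 28.2 and 29.2 CPM in n-Sen and 21.0 and 18.2 CPM in control medium, a log2 difference of -0.55 ± 0.091. Hoxc6 was 44.9 and 41.6 CPM and then 32.5 and 33.4 CPM, a difference of -0.39 ± 0.074. Hoxb4, known for expanding blood stem cells, was 12.7 and 12.4 CPM and then 7.78 and 8.78 CPM, a difference of -0.60 ± 0.130. The n-Sen and control medium libraries of these 3 were apart, as they were for 16 of 35 members in the downward and 3 in the upward direction (26.2% and 25.8% of all genes). Hoxa10 (-0.43), Hoxa9 (-0.48), Hoxd13 (-0.41), Hoxd10 (-0.68) and Hoxd11 (-0.53) were the other members called lower. With any 1 of the 4 n-Sen and control medium libraries left out, the difference was -0.65 to -0.45 for Hoxa7 and -0.45 to -0.34 for Hoxc6. The n-Sen libraries served to choose the family, so these ranges describe the spread and are no support for either gene. The call of Hoxb4 was lost without control medium replicate 1. That of Hoxa9 was lost without n-Sen replicate 1 or control medium replicate 1, and that of Hoxa10 without n-Sen replicate 1 or either control medium library. Those of the 3 HoxD genes were lost without any one of the 4. The count of Hox genes that fell was 2 to 5 with a library left out. None of the 8 reached 2-fold, against 0.312% of all genes called at least 2-fold lower and 1.01% at least 2-fold higher.

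**Figure D5:**
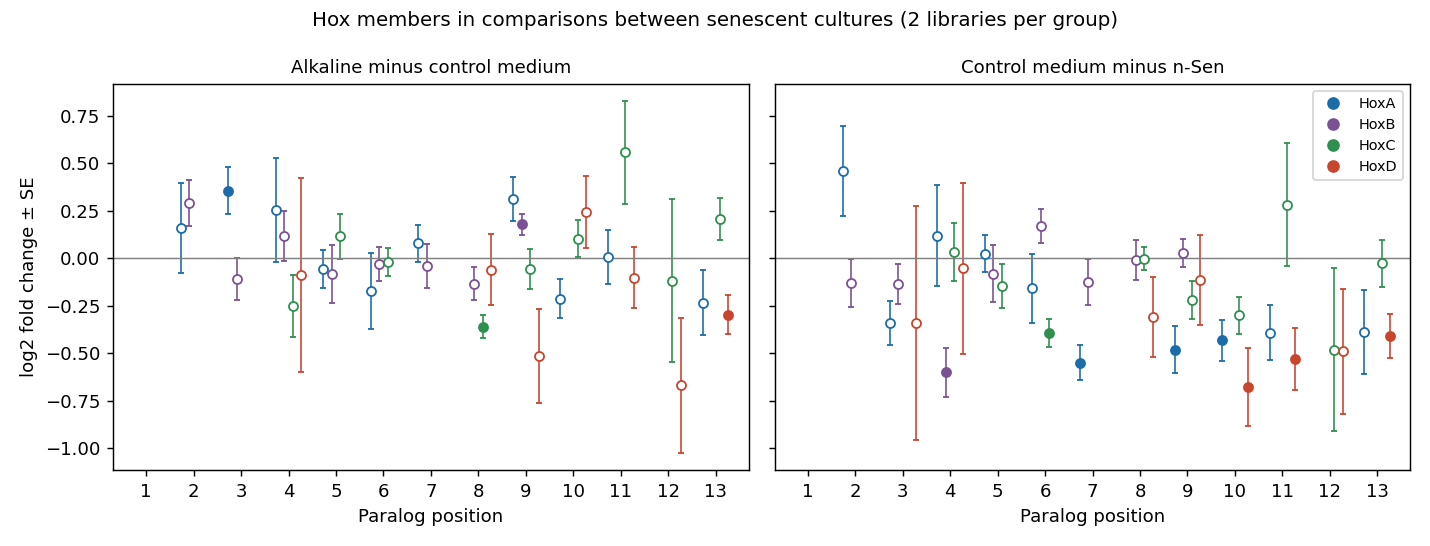
Log2 differences (y axis, bars of 1 SE from the edgeR fit) of the tested Hox genes are drawn against paralog position (x axis) for alkaline minus control medium (left) and control medium minus n-Sen (right), with colours for the 4 clusters and filled points for genes called at an adjusted p of 0.05. Called points lie on both sides of 0 on the left (2 higher, 2 lower) and below 0 on the right (8 lower).

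The cofactors that Hox proteins bind with moved less than the posterior Hox genes. Of 9 PBX, MEIS and PKNOX genes, 4 fell in n-Sen against proliferating cells and 5 were not called. Those that fell were Meis1 (-0.65), Pbx3 (-0.47), Pknox1 (-0.45) and Meis2 (-0.38) on the log2 scale. The share called lower over all genes tested was 33.1%, and 34.0% were called higher. In alkaline against control medium Meis2 (-0.56), Meis1 (-0.41) and Pbx2 (-0.29) were among those that fell, and Pknox2 rose (1.01). Meis2 was 35.0 and 35.7 CPM in control medium and 23.2 and 25.1 CPM in alkaline medium, and its libraries did not overlap.

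Transcripts beside or within the clusters varied with the nearest Hox genes in some places and against them in others. Of 34 listed genes beside or within the clusters 26 were tested in n-Sen against proliferating cells, with 12 higher, 7 lower and 7 not called, beside 34.0% higher and 33.1% lower over all genes tested. Evx2, the homeobox gene next to Hoxd13, was without a count in both proliferating libraries and at 1.48 CPM in both n-Sen libraries, at least 45.3-fold higher by the floor of 3 counts. Hottip, a noncoding RNA beyond Hoxa13, did not pass the filter in this comparison. It had 0 counts in both proliferating libraries, 4 and 19 in n-Sen, and 0 and 5 in alkaline medium, so n-Sen replicate 2 holds most of its n-Sen counts. Skap2, a signalling adaptor gene outside the anterior end of HoxA, went from 21.3 and 17.8 CPM to 57.8 and 61.4 CPM (log2 1.61), and Lnpk, an endoplasmic reticulum gene beyond Evx2, from 44.9 and 45.7 CPM to 24.6 and 26.2 CPM (log2 -0.83). In alkaline against control medium 1 of 26 rose, 1 fell and 24 were not called (9.58% higher and 10.4% lower over all genes).

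Regulators of Hox chromatin were mostly lower in n-Sen. Of 31 Polycomb and Trithorax genes 20 fell, 6 rose and 5 were not called against proliferating cells. Over all genes tested 33.1% were called lower and 34.0% higher. Ezh2, the main H3K27 methyltransferase of dividing cells, was 59.2 and 63.6 CPM in proliferating cells and 7.20 and 5.01 CPM in n-Sen, a log2 fold change of -3.34 ± 0.12. Its homologue Ezh1 was 11.9 and 10.9 CPM and then 24.1 and 22.2 CPM, at 1.03 ± 0.10. Phf19 (-4.26), which recruits Polycomb complex 2, Cbx2 (-2.20), a reader of H3K27me3, and Suz12 (-1.40), a core subunit, fell as well, and so did Dpy30 (-1.75) and Wdr5 (-1.40), which serve Trithorax complexes. Eed, another core subunit, was not called. In alkaline against control medium 4 rose, 5 fell and 22 were not called (9.58% higher and 10.4% lower over all genes). Whether these levels have a part in the Hox values was not tested.

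Genes that set axial position through retinoic acid and growth factors also differed. Of 18 listed regulators 11 were tested in n-Sen against proliferating cells, with 7 higher, 3 lower and 1 not called. Over all genes tested 34.0% were called higher and 33.1% lower. Crabp1, a retinoic acid binding protein, was 288 and 272 CPM in proliferating cells and 0.600 and 0.592 CPM in n-Sen (log2 -8.87), while Crabp2, its relative that delivers retinoic acid to the nucleus, went from 3.07 and 2.56 CPM to 47.2 and 49.0 CPM (log2 4.11). The retinoic acid synthesising enzymes Aldh1a1 (4.05) and Aldh1a3 (1.45), the receptor Rarb (1.03) and Gdf11 (0.68), a growth factor of the trunk-to-tail transition, were higher. Gmnn, a replication licensing inhibitor that also binds Hox proteins, was lower (-3.15). In alkaline against control medium Aldh1a3 (1.12) and Rara (0.62) rose and Aldh1a1 (-0.84) and Rarg (-0.31) fell.

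Limb genes were described beside the posterior Hox genes because both act in limb buds. Of 22 listed 20 were tested, with 11 higher, 3 lower and 6 not called in n-Sen against proliferating cells. The shares over all genes tested were 34.0% higher and 33.1% lower. Tbx4, a hindlimb factor, was 1.78 and 2.27 CPM in dividing cultures, 16.1 and 15.8 CPM in n-Sen, 11.9 and 13 CPM in control medium and 8.55 and 9.11 CPM in alkaline medium (log2 2.97 in n-Sen). Pitx1, which sets hindlimb identity, was 8.59 and 7.82 CPM, then 35.8 and 36.6 CPM, 24.4 and 26.8 CPM, and 21.5 and 19.0 CPM in the same order (log2 2.15). Tbx5, the forelimb counterpart of Tbx4, was higher by 0.85 on the log2 scale. In alkaline against control medium 10 of the 20 fell, 1 rose and 9 were not called. Over all genes 10.4% were called lower and 9.58% higher. The limb genes that fell include Prrx1 (-0.99), Tbx4 (-0.50), Grem1 (-0.42) and Pitx1 (-0.35), and Msx2 rose (0.41). Among the posterior Hox genes of limb buds, Hoxd13 (-0.30) was the one called lower in the same comparison. Its call rested on single libraries and was lost in DESeq2. Hoxd12 (-0.67) and Hoxd9 (-0.52) had larger negative differences and were not called, and Hoxc11 (0.56) and Hoxd10 (0.24) lay above 0, also not called.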

How the data were processed

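The labels' protocols describe directional (dUTP) libraries of polyadenylated RNA, 8 in all. Tools named in the submitters' processing notes are DESeq2 1.34.0, featureCounts (from Subread 2.0.2), fastp 0.23.2 and HISAT2 2.1.0, and the build is mm10. The annotation release and strand setting are not given in the sources used here. The authors deposited expected counts (estimated counts per gene, 32.7% to 33.7% of the nonzero values fractional) in 2 tables, the first for n-Sen and proliferating cells and the second for both buffered media. No columns of other samples were used (0). GENCODE vM21 gave a symbol for 54809 of 54838 rows.

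Counts were rounded, filtered with filterByExpr and TMM-scaled. They were tested in R 4.3.3 with edgeR 4.0.16 (quasi-likelihood F test), and p-values were Benjamini-Hochberg adjusted over all genes tested, at a threshold of 0.05. Each table was fitted separately, and control medium against n-Sen came from a fit of all 8 libraries. The SE is the absolute log2 fold change over the square root of F. CPM and CPM per kb of merged exon length used the TMM factors of all 8 libraries. A gene without counts in a group was set against 3 counts over the group; such floors cover counting error only. With 2 libraries per group, the biological coefficient of variation was 0.0646, 0.0579 and 0.0618. The procedure was tested on simulated counts. DESeq2 1.42.0, other size factors, no filter, truncated counts, other sets of libraries in the fit, a replicate block and leaving out each library were the alternatives.

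The members, the lists of cofactors, neighbours, chromatin regulators, axial and limb genes, the cell type markers and the tests were chosen with earlier results of these data known. Values in every library are given for members called at 2-fold or more with a mean of at least 1 CPM, and for those called in alkaline medium; other members are given by counts and ranges or by single values. Members named after their values were seen are Hoxb13, Hoxc10 and those called in control medium. Some results on listed genes are not reported here.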

Additional observations from a re-analysis of the deposited data

How the results depend on the processing

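Directions of all called members were kept under every alternative run. In n-Sen against proliferating cells DESeq2 called 3 Hox genes lower where edgeR called 6, and with 1 library left out 18 were called higher and 4 to 7 lower. In alkaline against control medium the 2 higher and 2 lower Hox genes became 1 and 1 in DESeq2, 1 and 1 in the fit of 8 libraries, and 1 higher without the filter; leaving out 1 library gave 1 to 2 higher and 1 to 3 lower. In control medium against n-Sen, leaving out 1 library gave 731 to 816 genes higher and 450 to 569 lower (1250 and 1003 with all), and 2 to 5 Hox genes lower; Hoxd10 (adjusted p = 0.0554) and Hoxd11 (0.0671) were lost in DESeq2. With 1 library left out an arm can hold a lone sample, which is then assumed to vary like the other group. Another scaling moved the median of all genes by under 0.1 on the log2 scale.

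Libraries with the same number share only that number: their deviations correlated at -0.0285, -0.00874 and -0.00345 over 20215 genes. With the replicate number as a block, 6455 genes were higher and 6271 lower in n-Sen against proliferating cells, with 18 Hox genes higher and 6 lower. The replicate block gave 2056 and 2254 genes in alkaline against control medium (3 and 2 Hox genes), and 1168 and 910 in control medium against n-Sen, with 7 Hox genes lower. The causes of these shifts were not tested. Depth limits Hoxb1, Hoxb13 and Hoxd1, and the fold changes of genes with 10 or fewer counts in proliferating cells.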
